A study of Oryza sativa Indica Group with 2 samples.

Results

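The core circadian clock genes of rice are described here in RNA from seedlings of a line that overexpresses OsGRF7 (GRF7OE) and of the wild type (WT). The members are 10 rows, chosen by RAP gene identifier as the rice genes LHY, PRR73, PRR37, PRR95, PRR59, PRR1, GI, FKF1, ELF3 and PCL1, out of 35677 genes in the deposited table. There were 2 libraries, 1 of GRF7OE and 1 of WT, both from tillering-stage seedlings of Indica rice that grew in Wuhan in summer. The GRF7OE library comes from a single transgenic line, GRF7OE-1, and the labels give neither the promoter of the transgene, nor the number of plants per library, nor the hour of collection. OsGRF7 encodes a growth-regulating factor, a plant-specific transcription factor. It was at 70.7 FPKM in GRF7OE and 5.10 FPKM in WT, which fits the labels of both libraries. FPKM is the read count of a gene scaled to transcript length and library size.

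The plant clock is a loop of transcriptional repressors whose levels rise and fall in turn over the day. LHY, a MYB-type factor of the morning, represses genes that peak later, and the pseudo-response regulators (PRR) then appear in sequence and repress LHY. GIGANTEA (GI) and the F-box protein FKF1 link the loop to light and to photoperiodic flowering, and ELF3 and PCL1 (the rice counterpart of LUX) belong to the evening complex, which represses genes at dusk and in the night. These roles were worked out largely in Arabidopsis. The amount of each transcript in a single harvest therefore depends on the hour at which it was made.

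The clock genes as a group lay close to WT, with LHY lower and PCL1 higher in GRF7OE. All 10 members passed the filter on low values, a mean FPKM of 1 or more, as did 23397 genes in all. The ratio used for counts is log2((GRF7OE FPKM + 1) / (WT FPKM + 1)), and a gene is called when it is at least 2-fold apart on that scale. None of the 10 members was called, beside 4.49% of all genes tested, and none was 1.5-fold apart on that scale, beside 14.0% of all genes. Without the pseudocount 1 member, LHY, was past 1.5-fold, by plain FPKM ratio beside 19.8% of all genes tested and by normalised count ratio beside 18.9%. The log2 ratio was below 0 in 7 members and above 0 in 3, whereas 51.7% of all genes tested were below 0. The members' median was -0.08 and that of all genes tested -0.01. None of the 10 is significant in the authors' deposited table, beside 1.75% of the genes tested. With 1 library per group no difference below could be set against the spread between plants.

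Read counts give the precision of each ratio. Totals were 17021467 reads in GRF7OE and 16824988 in WT. The members rested on 363 to 25668 reads each in GRF7OE and 628 to 30013 in WT. Brackets below hold a 95% exact (Clopper-Pearson) interval of the ratio of normalised read counts, GRF7OE over WT. It covers counting error only, not differences between plants. By that measure 5 members lay below 1 beyond counting error, 1 above it, and 4 could not be told from 1. At this depth that is common, since among 10396 genes with at least 300 reads in both libraries the interval left out 1 for 58.6%.

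**Figure D1:**
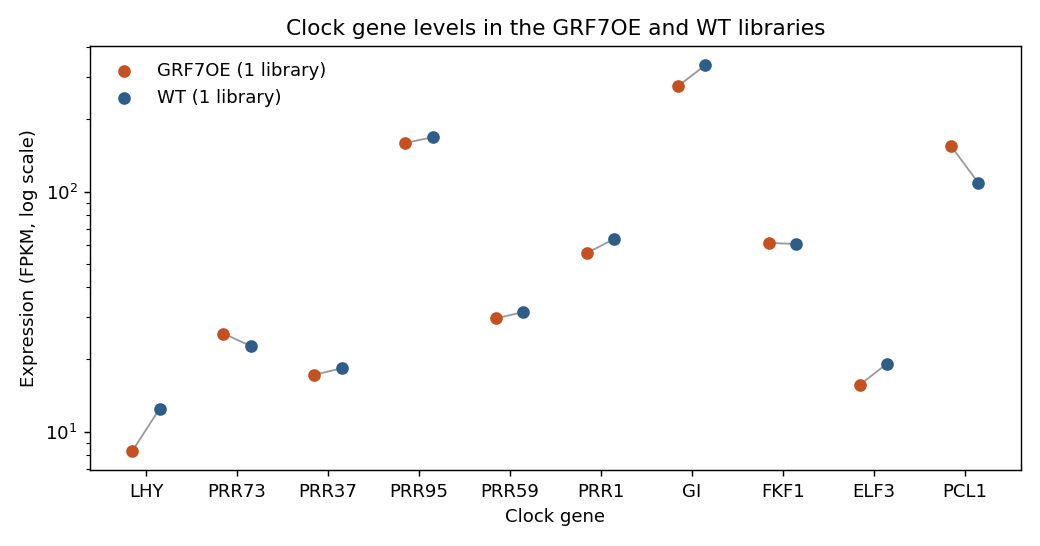
Expression of the 10 clock genes in FPKM (log axis), with GRF7OE as the left and WT as the right point of each pair, 1 library each and no error bar for want of replicates. LHY is lower in GRF7OE at 8.32 against 12.5 FPKM, PCL1 is higher at 155 against 109 FPKM, and PRR95, PRR59, PRR37 and FKF1 are nearly level.

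LHY (OS08G0157600), the MYB factor that opens the daily cycle, was the member with the lowest ratio. It was at 8.32 FPKM in GRF7OE and 12.5 FPKM in WT, from 363 and 628 reads. It was also the least abundant of the 10 in both libraries. The ratio was 0.666 by FPKM and 0.583 [0.511 to 0.665] by normalised read count. The log2 ratio of -0.53 was above that of 5.97% of the genes tested, so LHY lay toward the lower side of the distribution but well inside it.

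The pseudo-response regulators, repressors of LHY, were nearly level when summed as a family. Summed over its 5 genes, expression was 288 FPKM in GRF7OE and 305 FPKM in WT. By count ratio 2 of the 5 lay below 1 beyond counting error, and for 3 the interval held 1. PRR95 (OS09G0532400), the most abundant of them, was at 159.5 FPKM in GRF7OE and 169 FPKM in WT, a count ratio of 0.987 [0.961 to 1.01]. PRR59 (OS11G0157600) was at 29.7 FPKM in GRF7OE and 31.5 FPKM in WT, with a count ratio of 0.989 [0.925 to 1.06]. Both libraries thus had like levels of PRR95 and PRR59, within counting error by read count.

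PRR37 (OS07G0695100), known as a heading date gene that delays flowering under long days, was at 17.3 FPKM in GRF7OE and 18.4 FPKM in WT. Its count ratio was 0.988 [0.917 to 1.07]. PRR1 (OS02G0618200), the rice counterpart of Arabidopsis TOC1 and the evening member of the family, was at 55.6 FPKM in GRF7OE and 63.7 FPKM in WT. That is a ratio of 0.873 by FPKM and 0.898 [0.853 to 0.945] by read count, lower in GRF7OE by both measures.

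PRR73 (OS03G0284100), the close relative of PRR37, was the member for which the measures disagreed on direction. Its FPKM was 25.7 in GRF7OE and 22.8 in WT, a ratio of 1.13, above 1. Its read counts were 1760 in GRF7OE and 1960 in WT, a normalised ratio of 0.906 [0.849 to 0.967], below 1. Opposite directions of this kind occurred in 6.05% of the genes tested. The statement that 7 of 10 members had a log2 ratio below 0 rests on FPKM, and by normalised read count it was 8 of 10, beside 48.8% of all genes tested.

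**Figure D2:**
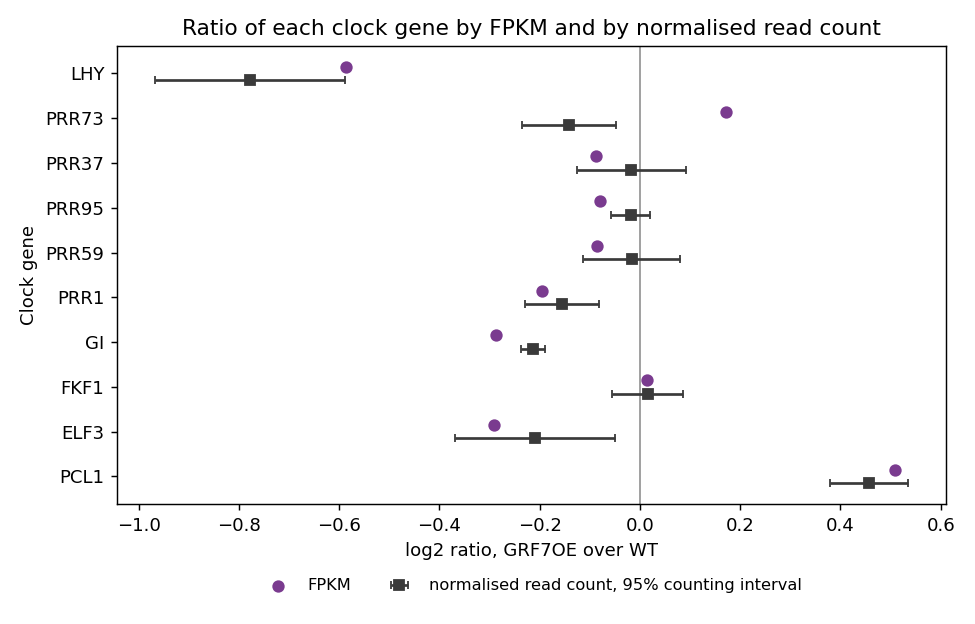
log2 ratio of GRF7OE over WT for each clock gene, by plain FPKM with no pseudocount (circles) and by normalised read count (squares, with bars for the 95% counting interval). LHY and PCL1 lie farthest from 0, and PRR73 is above 0 by FPKM at a ratio of 1.13 and below 0 by read count at 0.906.

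GI and FKF1, which act together in light to promote photoperiodic flowering in Arabidopsis, differed in how close they lay to WT. GI (OS01G0182600) was at 276 FPKM in GRF7OE and 336 FPKM in WT, and was the most abundant member in both libraries. Its ratio was 0.819 by FPKM and 0.863 [0.849 to 0.878] by read count, the narrowest interval of the 10 because it rested on 25668 and 30013 reads. FKF1 (OS11G0547000) was at 61.1 FPKM in GRF7OE and 60.6 FPKM in WT, with a count ratio of 1.01 [0.962 to 1.06]. The level of GI relative to FKF1, both in FPKM, was 4.51 in GRF7OE and 5.55 in WT.

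The evening complex genes lay on opposite sides of WT. PCL1 (OS01G0971800), the DNA-binding member, was at 155 FPKM in GRF7OE and 109 FPKM in WT, from 3149 and 2314 reads. Its ratio was 1.42 by FPKM and 1.37 [1.30 to 1.45] by read count, and it was the 1 member above 1 beyond counting error. Its log2 ratio of 0.51 was above that of 88.5% of the genes tested. In the authors' deposited table PCL1 has a p-value of 0.0760 and an FDR of 0.752, the lowest FDR of the 10, and the other 9 have an FDR of 0.9999. Those values compare these 2 libraries, not the conditions.

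ELF3 (OS06G0142600), the scaffold of the evening complex and known in rice as a heading date gene, was at 15.7 FPKM in GRF7OE and 19.2 FPKM in WT. Its ratio was 0.818 by FPKM and 0.865 [0.775 to 0.966] by read count, lower in GRF7OE. The level of PCL1 relative to ELF3, both in FPKM, was 9.86 in GRF7OE and 5.67 in WT.

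**Figure D3:**
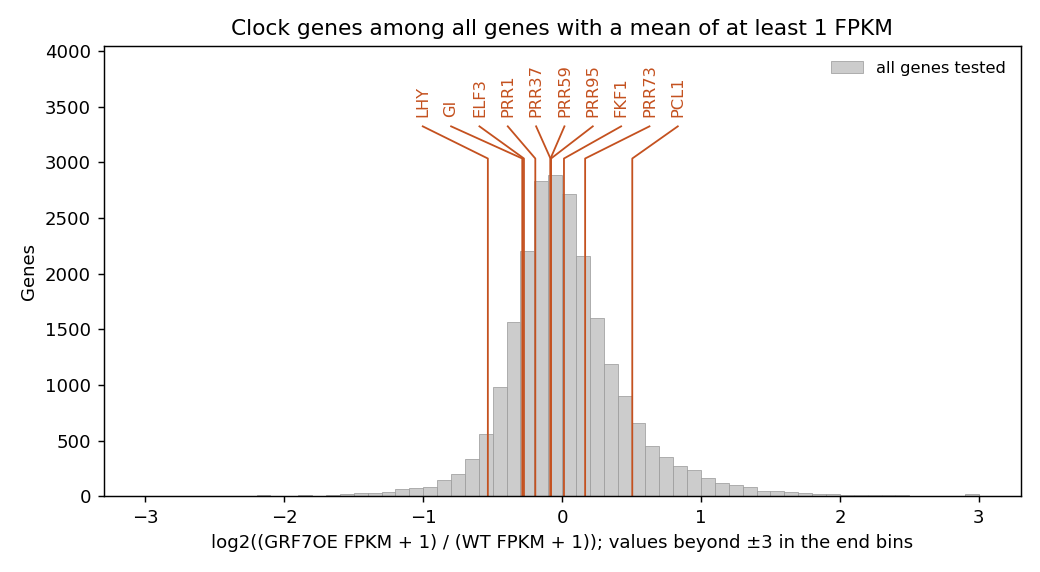
Distribution of log2((GRF7OE FPKM + 1) / (WT FPKM + 1)) over the 23397 genes tested (grey bars, genes per bin of 0.1), with a line at each clock gene. The clock genes run between -0.53 for LHY and 0.51 for PCL1, all inside the body of the distribution.

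Ratios between clock genes inside a library do not depend on how the libraries were scaled to each other. PCL1 relative to LHY, in FPKM, was 18.7 in GRF7OE and 8.72 in WT. By normalised read count, which is not corrected for transcript length, the same ratio was 8.67 in GRF7OE and 3.68 in WT. The balance of these genes, the member farthest above 0 and the member farthest below it, thus differed by more than 2-fold between the libraries by either measure. They were set side by side because they lie farthest apart, so the size of the gap is a description.

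Other genes also stood higher relative to LHY in GRF7OE. PRR1 over LHY was 6.68 in GRF7OE and 5.10 in WT by FPKM, PRR95 over LHY was 19.2 in GRF7OE and 13.5 in WT, and GI over LHY was 33.1 in GRF7OE and 26.9 in WT. These ratios share the LHY value, so they are not separate evidence. LHY had the lowest GRF7OE over WT ratio of all members, so every other member had to stand higher relative to it. In both libraries the order of FPKM levels began with GI, PRR95 and PCL1 and ended with LHY. FKF1 and PRR1 stood in opposite order, at 61.1 and 55.6 FPKM in GRF7OE and 60.6 and 63.7 FPKM in WT. PRR37 and ELF3 did so too, and without replicates neither exchange can be set against a spread.

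LHY and PRR73 stood apart in another respect that FPKM alone does not show. The normalised read count per unit of FPKM reflects the transcript length by which the authors' processing divided, and for most genes it was almost the same in both libraries. For LHY it was 42.0 in GRF7OE and 48.0 in WT, a log2 difference of -0.19. For PRR73 it was 66.1 in GRF7OE and 82.2 in WT, a log2 difference of -0.31. Both genes thus had fewer counts per FPKM in GRF7OE.

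Among the 10396 genes with at least 300 reads in both libraries, the median of this log2 difference was 0.04 and the central 95% ran from -0.09 to 0.11. PRR73 had a lower value than all but 15 of those genes, and LHY than all but 68. The other 8 members lay between -0.05 for PCL1 and 0.08 for ELF3, inside that central range. The table pairs 4 MSU transcript models with LHY and 6 with PRR73, but also 7 with GI, whose difference was 0.08. Single models are listed for PRR1, ELF3 and PCL1. Values per transcript were not analysed here, and whether the mix of transcripts differed was not tested.

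**Figure D4:**
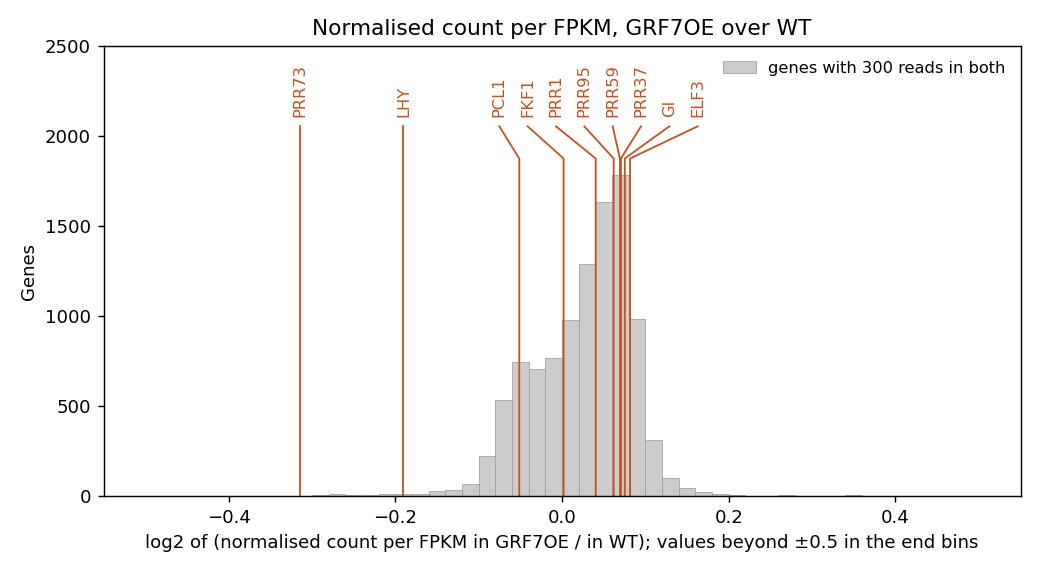
log2 of the normalised read count per FPKM in GRF7OE over that in WT, for the 10396 genes with at least 300 reads in both libraries (grey bars, genes per bin of 0.02), with a line at each clock gene. PRR73 at -0.31 and LHY at -0.19 lie outside the central 95% of genes, and the other 8 members inside it.

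Other clock components, paralogs and partners of the 10 members, were mostly level too. The list held 19 genes, 9 from a hand-written list and 10 added because their deposited description names a clock protein family. Of these, 15 had a mean of at least 1 FPKM, 10 with a log2 ratio below 0 and 5 above. Their median was -0.06, and none was past 2-fold on the log2 scale with the pseudocount of 1 FPKM. The largest difference was in OS01G0844900, a gene of the PCL1 type, at 0.635 FPKM in GRF7OE and 1.91 FPKM in WT. Its log2 ratio was -0.83 and its count ratio 0.353 [0.221 to 0.549], on 28 and 80 reads. Without the pseudocount it was past 2-fold, at an FPKM ratio of 0.333.

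This low-level relative thus lay opposite to PCL1 itself. Another gene of that type, OS01G0176700, was at 3.92 FPKM in GRF7OE and 3.81 FPKM in WT. OS03G0410300 is described as ELF4-like, of the small proteins that join the evening complex. It was at 51.5 FPKM in GRF7OE and 36.5 FPKM in WT, with a count ratio of 1.36 [1.21 to 1.53]. For the ELF4-like genes OS11G0621500 and OS08G0366200 the interval held 1, at count ratios of 1.06 [0.941 to 1.20] and 0.935 [0.792 to 1.10]. The second ELF3-type gene, OS01G0566100, was lower in GRF7OE like ELF3, at 10.1 FPKM against 12.7 FPKM in WT. Its count ratio was 0.830 [0.726 to 0.949].

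REVEILLE-type genes are MYB factors related to LHY. OS06G0728700, matched to REVEILLE 2, was at 1.30 FPKM in GRF7OE and 2.06 FPKM in WT, with a count ratio of 0.650 [0.456 to 0.919]. OS02G0685200, matched to REVEILLE 1, was under the filter at 0.208 FPKM in GRF7OE and 0.610 FPKM in WT, on 7 and 21 reads. Both lay below WT, as LHY did. The more abundant OS06G0669700, matched to REVEILLE 6, was at 18.1 FPKM in GRF7OE and 20.0 FPKM in WT, with a count ratio of 0.956 [0.829 to 1.10].

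Among photoreceptors, which set the clock by light, phytochrome A was lower in GRF7OE. The list of 6 photoreceptor genes and COP1, a ubiquitin ligase of light signalling, had 5 log2 ratios below 0 and 2 above, a median of -0.05 and none past 2-fold. Phytochrome A (OS03G0719800) was at 13.6 FPKM in GRF7OE and 23.8 FPKM in WT, a log2 ratio of -0.76 and a count ratio of 0.606 [0.565 to 0.649]. The blue-light receptor genes described as cryptochrome-1 were lower as well. OS02G0573200 was at 22.5 FPKM in GRF7OE and 28.7 FPKM in WT, and OS04G0452100 at 11.9 FPKM in GRF7OE and 15.7 FPKM in WT. Cryptochrome-2 (OS02G0625000) was level within counting error, at a count ratio of 1.01 [0.937 to 1.10]. Phytochrome B (OS03G0309200) was another gene whose measures disagreed, at a ratio of 1.10 by FPKM and 0.949 [0.883 to 1.02] by read count. Its normalised read count per FPKM was lower in GRF7OE, a log2 difference of -0.21, beside -0.19 for LHY. That trait was thus not particular to the clock genes.

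Phytochrome-interacting factors (PIF) are bHLH proteins that promote growth in Arabidopsis, where the clock and light restrain them. The list held 5 related rice genes, of which OS01G0286100 and OS05G0139100 are matched to transcription factor APG by description. What these genes do in rice was not tested. All 5 had a log2 ratio below 0. Their median log2 ratio was -0.42, against -0.08 for the clock genes and -0.01 for all genes tested, and none was past 2-fold. The lowest was OS01G0286100, at 10.7 FPKM in GRF7OE and 16.6 FPKM in WT, with a count ratio of 0.641 [0.571 to 0.718]. OS07G0143200 followed at 9.53 FPKM in GRF7OE and 14.0 FPKM in WT. OS03G0782500 was at 11.2 FPKM in GRF7OE and 15.4 FPKM in WT, and OS05G0139100 at 13.4 FPKM in GRF7OE and 17.9 FPKM in WT. For OS12G0610200 the interval of the count ratio held 1, and for the other 4 it lay below 1. Whether these genes as a group differ from others was not tested.

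**Figure D5:**
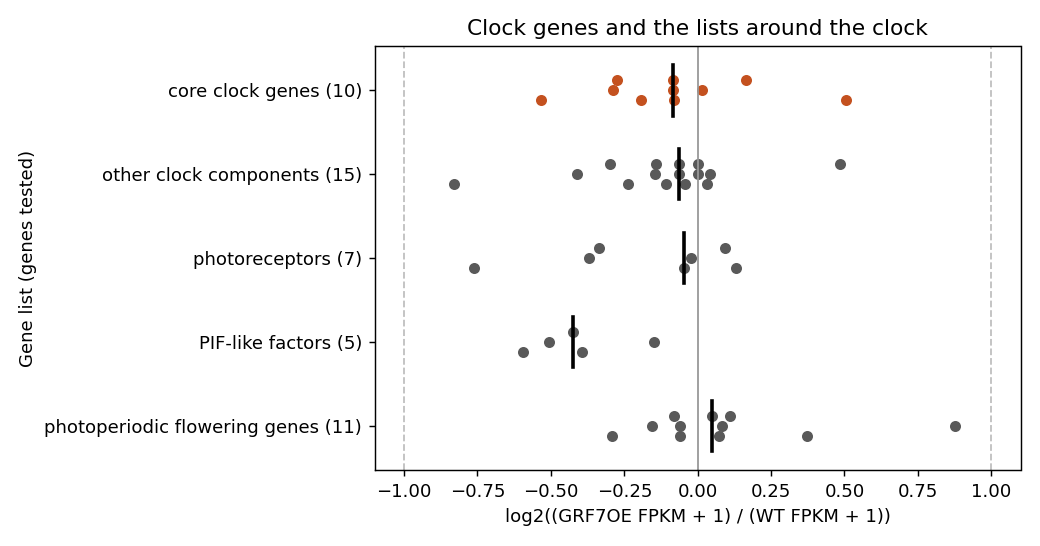
log2((GRF7OE FPKM + 1) / (WT FPKM + 1)) of each gene with a mean of at least 1 FPKM, in the 10 core clock genes and 4 lists around them (points are genes, the black bar is the list's median, dashed lines mark 2-fold). The PIF-like genes lie below 0 with a median of -0.42, and the other medians lie between -0.08 and 0.05.

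Photoperiodic flowering genes, the outputs that read the clock, lay on both sides of WT. Of 15 genes 11 passed the filter, 5 below 0 and 6 above, with a median of 0.05 and none past 2-fold on the log2 scale. Hd3a (OS06G0157700), a florigen that moves to the shoot tip to start flowering, was nearly silent, with 5 reads in GRF7OE and 1 in WT and a count ratio of 5.05 [0.565 to 239].

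Hd1, Ehd1 and Ghd7, which act upstream of Hd3a, were themselves low. Hd1 (OS06G0275000), a CONSTANS-type factor whose transcription follows the clock, was at 1.505 FPKM in GRF7OE and 2.07 FPKM in WT, a count ratio of 0.725 [0.485 to 1.08]. Ehd1 (OS10G0463400), an activator of Hd3a, had 3 reads in GRF7OE and 2 in WT. Ghd7 (OS07G0261200), a repressor of Ehd1, had 1 read in GRF7OE and 3 in WT. Neither Ehd1 nor Ghd7 was above a floor of 3 reads, so no difference was detectable at this depth.

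Of the remaining flowering genes, the CONSTANS-type gene OS02G0610500 was at 61.2 FPKM in GRF7OE and 47.1 FPKM in WT, a count ratio of 1.22 [1.11 to 1.35]. The MADS-box gene OS01G0922800 was at 49.3 FPKM in GRF7OE and 55.1 FPKM in WT, a count ratio of 0.907 [0.838 to 0.980].

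Organ markers were compared because both libraries come from seedlings, in which fewer cells of a type and less RNA per cell cannot be told apart. All 3 leaf markers, a pair of Rubisco small subunit genes and a light-harvesting protein gene, were higher in GRF7OE. Their sum was 5975 FPKM in GRF7OE and 4259 FPKM in WT. The light-harvesting gene OS01G0720500 differed most, at 2193 FPKM in GRF7OE and 1204 FPKM in WT. The Rubisco gene OS12G0292400 differed least, at 739 FPKM in GRF7OE and 701 FPKM in WT. None of the 3 is significant in the authors' deposited table. The root marker OS02G0662000 was low in both libraries and lower in GRF7OE. It was at 5.19 FPKM in GRF7OE and 10.4 FPKM in WT, on 49 and 100 reads. Of the 2 endosperm glutelin genes, GluB1 was at 0 in both libraries and GluA1 at 0.282 FPKM in GRF7OE and 0.496 FPKM in WT. The 3 floral MADS-box genes summed to 39.4 FPKM in GRF7OE and 39.3 FPKM in WT, nearly all of it from MADS16 (OS06G0712700). The part of the organ balance in the clock gene ratios was not tested.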

How the data were processed

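RNA from 1 GRF7OE and 1 WT library (3 µg of total RNA each, per the labels' protocols) was compared. Bowtie and Cuffdiff are named in the submitters' processing notes. Their versions, the genome build and the annotation are not given in the sources. The authors deposited FPKM and a normalised read count per gene, a signal whose step per read was 0.963 in GRF7OE and 0.954 in WT. Dividing by that step gave whole reads, within 0.05, for 99.3% and 99.2% of genes with values above 0 and below 10000. The authors' deposited p-value and FDR columns are quoted as theirs. They called a gene significant at an FDR up to 0.05 with a log2 ratio of 1 or more in size, per the file headers. The deposited log2 ratio equals that of the FPKM columns, within 0.001, for all 10 members.

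Ratios are GRF7OE over WT, with a pseudocount of 1 FPKM on the log2 scale. It understates the change of low genes. All members are named, then up to 4 genes of each list by size of the log2 ratio, together with Hd1, Ehd1, Ghd7 and Hd3a. A gene that this rule names is not reported here. Genes named beyond that rule (OS01G0176700, OS05G0412000, OS11G0621500, OS08G0366200, OS06G0669700, OS06G0105800, OS02G0680700, OS02G0685200, CRY2 and OS12G0610200) were chosen after their values were seen. Members and lists were chosen with earlier results of these data known. Intervals were tested on simulated reads. Build and identifiers differ from those of the rice RefSeq table, so coordinates and sequences were not used here. A direction column headed GRF7_RNAi was not used, and the FPKM and count columns are headed GRF7_OE. Alternatives were pseudocounts of 0.1 and 0.5, other filters, other scalings and the count columns. Values were computed with pandas 2.3.3 and NumPy 2.4.6 and intervals with SciPy 1.17.1, in Python 3.11.15, and plots were drawn with Matplotlib 3.10.9.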

Additional observations from a re-analysis of the deposited data

How the results depend on the processing

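No member was past 2-fold under any alternative tried, plain FPKM ratios included, and none was significant by the authors' own calls. The count past 1.5-fold was 0 with other pseudocounts, other filters or the median ratio scaled to 1. It was 1, LHY, with the FPKM sums made equal, from the normalised count columns, and by plain FPKM or count ratios, a comparison added after the data were seen. The members below 0 numbered 7 with other pseudocounts, filters or the median ratio scaled to 1, and 8 with both libraries scaled to the same FPKM sum or from the normalised counts. The clock median moved most, to -0.17, once the FPKM sums were made equal, a scaling that itself took the median of all genes to -0.09. PRR73 turned to -0.14 from the counts, and FKF1 to -0.08 under the same-sum scaling. The other 8 members kept their sign in all 7 settings, with LHY between -0.78 and -0.52 and PCL1 between 0.41 and 0.52. The flowering median of 0.05 turned to -0.04 under the same-sum scaling and to -0.01 at a mean of at least 5 FPKM. With 1 library per group, no library could be left out and no paired fit was possible. Depth limits Ehd1, Ghd7 and Hd3a.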

Other observations

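Further CONSTANS-like genes, B-box or CCT-domain proteins related to Hd1, were taken from the deposited descriptions after their values had been seen. Of 22 such genes outside the lists above, 20 had a mean of at least 1 FPKM, with 8 log2 ratios below 0 and 12 above and a median of 0.12. Of these 20, 1 gene was past 2-fold on the log2 scale with the pseudocount, OS08G0249000, beside 4.49% of all genes tested. It was at 22.5 FPKM in GRF7OE and 9.16 FPKM in WT, with a count ratio of 2.39 [1.90 to 3.02]. It is not significant in the authors' deposited table. OS09G0509700 was at the other end, at 10.3 FPKM in GRF7OE and 19.1 FPKM in WT, with a count ratio of 0.542 [0.474 to 0.619]. OS06G0654900, the most abundant, was at 296 FPKM in GRF7OE and 368 FPKM in WT.

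Genes of the EID1-like F-box type, named in the table as clock coupling factors, were taken in the same way. All 3 above the filter had a log2 ratio below 0, beside 51.7% of all genes tested. For OS03G0427000 the interval of the count ratio held 1, at 0.885 [0.773 to 1.01]. OS05G0494600 was at 4.96 FPKM in GRF7OE and 8.08 FPKM in WT, and OS07G0598200 at 49.0 FPKM in GRF7OE and 57.0 FPKM in WT. The gene described as XAP5 CIRCADIAN TIMEKEEPER (OS09G0535300) was at 14.1 FPKM in GRF7OE and 16.4 FPKM in WT, a count ratio of 0.879 [0.779 to 0.993].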
